A study of Saccharomyces cerevisiae with 24 samples.

Results

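The deletion strains described here each lack 1 of 55 yeast genes that build the cytochrome part of the mitochondrial respiratory chain. They comprise 16 genes for subunits, assembly factors and translation factors of complex III, 31 for complex IV, 4 for cytochrome c and the heme lyases, and 4 for the subunits of complex II. The members were matched by systematic gene name, and the choice of genes was made with earlier results of these data known. Of the 55 genes, 53 had a barcode probe among the 5526 strains on the array, and Δcox4 and Δsdh3 had none. A pooled knockout collection in the haploid MATα strain BY4742 was transformed with a multicopy plasmid and plated, and the barcodes of the surviving cells were measured on microarrays. Each strain carries 2 barcodes, the uptag and the downtag. The question of the screen was which deletions let cells grow while the inner membrane protein Mdm33 is overproduced.

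All groups share the pool, the strain background and the plasmid backbone pYX223. Cells of the first group carried pYX223-MDM33, in which the GAL1/10 promoter drives MDM33, and spent 4 days on 2% galactose, where this promoter is active. The second group carried the same plasmid on 2% glucose for 2 days, where the promoter is repressed. The third group carried the empty vector on galactose for 4 days and the fourth carried it on glucose for 2 days. Each group was measured in 2 experiments, and values below are given for experiment 1 first and experiment 2 second. Sugar and time on the plate differed together and cannot be told apart. In experiment 1 glucose DNA was labelled with Cy5 and galactose DNA with Cy3, so dye and sugar cannot be told apart there, while experiment 2 used both dyes for each DNA. Barcodes report the abundance of a strain in a pool, not the amount of Mdm33, which was not measured here.

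Complex II passes electrons from succinate to ubiquinone, complex III passes them from ubiquinol to cytochrome c, and complex IV passes them from cytochrome c to oxygen. Several subunits of complexes III and IV are encoded by mitochondrial DNA, and each of their mRNAs needs dedicated nuclear-encoded translation factors, while chaperones insert hemes and copper. Yeast that cannot respire lives by fermentation and forms small colonies. Glucose represses respiration strongly, and galactose, which is also fermented, does so less.

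The values were fluorescence intensities that had been scaled to a common total in each channel, so a signal is a share of the pool, and levels cannot be compared from barcode to barcode. A strain was detected in an experiment when at least 1 of its tags lay above the 99th percentile of the original probes of the other, unlabelled tag, after dyes were averaged. With the MDM33 plasmid this limit ranged from 786 to 3339 units on galactose and from 176 to 837 units on glucose. With the empty vector it ranged from 185 to 601 units on galactose and from 263 to 732 units on glucose. Absence on galactose with the MDM33 plasmid was therefore judged against a higher limit. Of the members, 39 of 53 passed a filter on the mean signal over all 8 samples, relative to the limit, and entered a limma fit of log2(value + 500) over the 4258 strains of the array that passed it. The median absolute difference between the experiments over these strains was 1.71 (log2) on galactose and 0.65 on glucose with the MDM33 plasmid, and 0.76 on galactose and 0.66 on glucose with the empty vector.

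**Figure D1:**
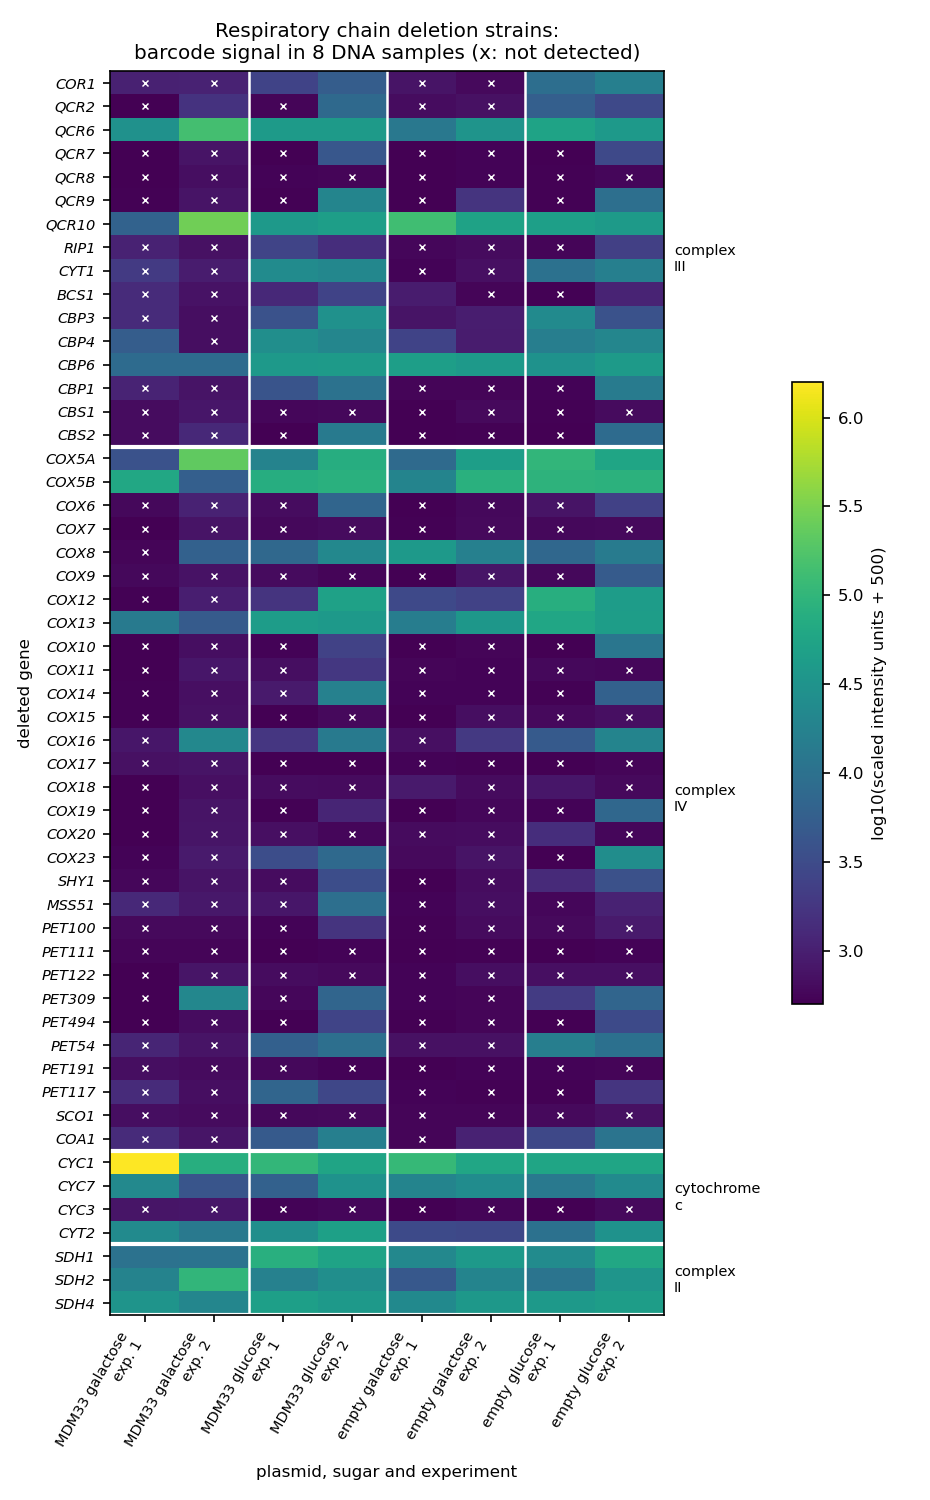
Signal of the 53 strains with a probe (rows, by complex) in the 8 DNA samples (columns, by plasmid, sugar and experiment), as log10 of scaled intensity units plus 500, with a cross where a strain was not detected. The strains lacking QCR6, QCR10, CBP6, COX5A, COX5B, COX13, CYC1, CYC7, CYT2, SDH1, SDH2 and SDH4 are the 12 detected in all 8 samples, and 10 strains were detected in none. The share of all strains with either pattern was not counted.

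A smaller share of these strains than of all strains was detected on glucose in both experiments. With the MDM33 plasmid both experiments detected 26 of 53 members on glucose, which is 49.1%, against 68.3% of all 5526 strains. With the empty vector the count was 24, or 45.3%, against 66.8% of all strains. Neither experiment detected 13 of 53 members with the MDM33 plasmid (22.2% of all strains) and 12 of 53 with the empty vector (22.8%). These shares are near those of all strains. Experiment 2 detected 40 members with the MDM33 plasmid and 39 with the empty vector, against 4256 and 4221 of all 5526 strains. Experiment 1 detected 26 with either plasmid, against 3814 and 3735, so most of the shortfall was in experiment 1. In complex IV both experiments detected 10 of 30 strains on glucose with either plasmid, and in complex III they detected 10 of 16 with the MDM33 plasmid and 8 with the empty vector. The share of all strains detected in no measurement was not counted. In single groups, 22.2% to 36.8% of all strains were detected in neither experiment, so the members without any detection are listed only as a description. No measurement detected Δqcr8, Δcbs1, Δcox7, Δcox15, Δcox17, Δpet111, Δpet122, Δpet191, Δsco1 or Δcyc3. Among these are the strains without Cox17 and Sco1, which deliver copper to complex IV, Cox15, which makes heme A, and Pet111 and Pet122, which activate translation of the COX2 and COX3 mRNAs. Whether these strains were in the pool before transformation is not known from these data. The mean signal of 4 further strains, Δcox11, Δcox18, Δcox20 and Δpet100, was too low for the test. Signal came from the downtag alone for Δcox11, Δshy1, Δpet100, Δpet309 and Δsdh2, and from the uptag alone for Δqcr7, Δcox18, Δcox20 and Δmss51.

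Many members were seen on glucose in experiment 2 alone. This held for 14 strains with the MDM33 plasmid, where 8.74% of all strains behaved so, and for 15 with the empty vector, against 9.61% of all strains. On galactose 4 members were seen in experiment 2 alone with the MDM33 plasmid (6.33% of all strains) and 3 with the empty vector (7.17% of all strains). On glucose in experiment 1 alone 0 members were detected with the MDM33 plasmid and 2 with the empty vector, against 41 and 45 of all 5526 strains. The strain lacking QCR7, a small subunit of complex III, had 1.68 and 3962 units with the MDM33 plasmid, against 0 and 2450 units with the empty vector. That lacking CBS2, an activator of cytochrome b translation, had 0 and 13048 units with the MDM33 plasmid, against 0 and 7943 units with the empty vector. Both strains were at background in experiment 1 and clearly above it in experiment 2 with either plasmid. The same was seen for Δqcr9, Δcox6, Δcox10, Δcox14, Δcox19, Δmss51 and Δpet494. Across the array, experiment 1 detected 3814 strains and experiment 2 detected 4256 strains on glucose under the MDM33 plasmid, and the part of the dye and of the experiment in this was not tested.

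**Figure D2:**
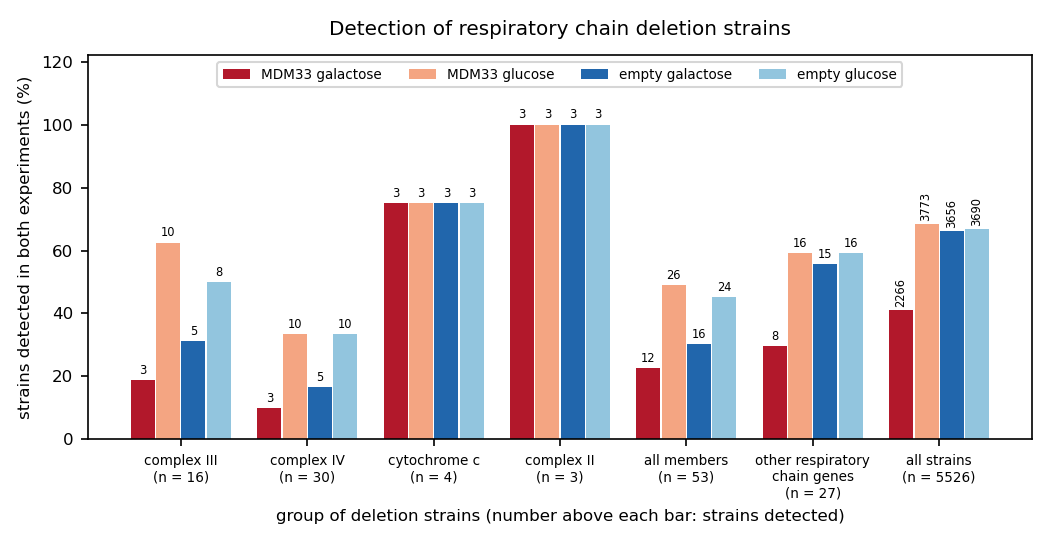
Share of strains detected in both experiments (vertical axis, %) for each complex, all members, 27 other respiratory chain genes and all strains, with a bar for each plasmid and sugar and the number of strains above it. All 3 complex II strains were detected in every group, while complex IV strains were detected least, with 3 of 30 on galactose with the MDM33 plasmid.

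On galactose 12 members were detected in both experiments with the MDM33 plasmid (22.6%, against 41.0% of all strains) and 16 with the empty vector (30.2%, against 66.2% of all strains), while 36 and 31 members were detected in neither (36.8% and 25.5% of all strains).

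With the empty vector, many strains lacking parts of complexes III and IV had far less signal on galactose than on glucose, while strains lacking complex II or an isoform of cytochrome c were detected on both sugars in both experiments. Among the 24 members detected on glucose in both experiments, 16 were detected on galactose in both experiments, which is 66.7%, against 94.7% of all 3690 strains detected on glucose, and 6 in neither, which is 25.0%, against 1.11%. Of the 21 members detected in all 4 glucose samples, 16 were found on galactose in both experiments (96.7% of the 3516 such strains of the array) and 3 in neither (0.256%). Galactose values of the 24 members had a median of 16.9% of the glucose values in experiment 1 and of 34.7% in experiment 2, and over all 3690 strains the medians were 84.7% and 99.9%. The signal on galactose was under 10% of that on glucose in both experiments for 9 of the 24 members, which is 37.5%, and for 56 of all 3690 strains, which is 1.52%. These 9 members make up 16.1% of the 56 strains. They lacked COR1, QCR2, CYT1, COX12, COX16, SHY1, COA1, PET54 or PET309. At a limit of 20% the count was 11 members, with Δcbp3 and Δcbp4 added, against 73 of all strains, or 1.98%. Both limits were chosen after the values were seen.

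**Figure D3:**
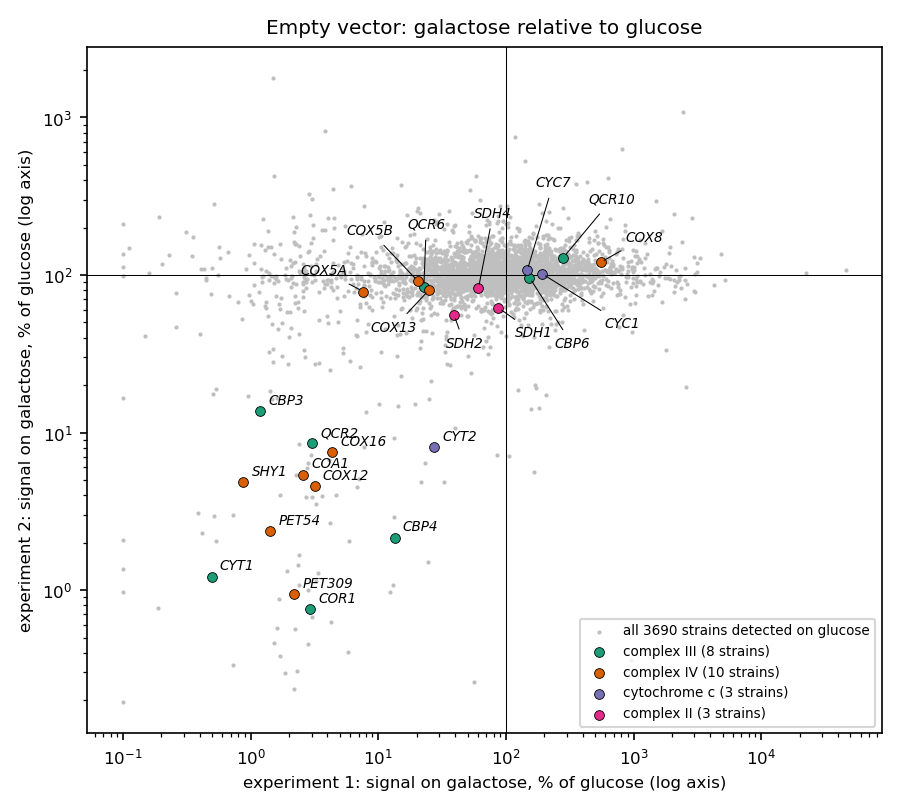
Signal on galactose as a percentage of that on glucose with the empty vector, experiment 1 (horizontal axis) against experiment 2 (vertical axis), both on log axes, for the strains detected on glucose in both experiments, with values under 0.1% drawn at 0.1%. Of the 24 named members, 11 lie under 20% in both experiments, and the strains lacking CYC1, CYC7, CBP6, COX8 and QCR10 lie between 96.3% and 551% in both.

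Of the structural subunits of complex III, the strain lacking CYT1 (YOR065W), which encodes cytochrome c1, had 47.0 and 189 units on galactose under the empty vector, against 9507 and 15481 units on glucose. The strain without the core subunit Cor1 (YBL045C) had 256 and 118 units on galactose, against 8794 and 15723 units on glucose. For both strains the galactose values lay below the detection limit and the groups did not overlap. The log2 difference was -4.36 for Δcyt1 (standard error 0.78) and -4.17 for Δcor1 (standard error 0.78), each with an adjusted p of 0.733 from limma, which was the smallest over all 4258 strains. The strain without Qcr2, the other core subunit, had 160 and 214 units on galactose, against 5257 and 2506 units on glucose. Its signal came mainly from the uptag, and it was also below the limit on galactose in both experiments. The strain without Qcr6, the acidic hinge protein, had 12178 and 31716 units on galactose, against 53525 and 37921 units on glucose. The strain without the small subunit Qcr10 had 132711 and 50984 units on galactose, against 47255 and 39610 units on glucose. These strains, which lack subunits that complex III can do without, stayed far above the limit in both experiments.

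Among the assembly and translation factors of complex III, the strain lacking CBP4 had 2039 and 420 units on galactose under the empty vector, against 15214 and 19526 units on glucose, a log2 difference of -3.54. The strain lacking CBP3 had 271 and 460 units on galactose, against 22880 and 3367 units on glucose, a difference of -3.47. Cbp3 acts in a complex with Cbp6 that binds newly made cytochrome b and promotes translation of its mRNA. The strain lacking CBP6 (YBR120C) had 45222 and 37918 units on galactose, against 29577 and 39355 units on glucose, a difference of 0.28 (standard error 0.71). The values of Δcbp3 on galactose lay below both on glucose, and those of Δcbp6 overlapped with them, although the proteins act together. Their difference from each other was not tested.

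Of the complex IV subunits, the strain lacking COX12 (YLR038C) had 2489 and 1948 units on galactose under the empty vector, against 78564 and 42563 units on glucose, and its difference of -4.43 was the lowest of the tested members. The strain lacking COX13 had 14763 and 35677 units on galactose, against 59246 and 44476 units on glucose. The strain lacking COX8 had 37390 and 16336 units on galactose, against 6788 and 13580 units on glucose. The strain without Cox8 was thus higher on galactose in both experiments, by a log2 difference of 1.32 in limma with a standard error of 1.25 (adjusted p = 0.9998), which was the highest of the tested members. Its value comes nearly all from the downtag. Yeast without Cox13 or Cox8 keeps part of its oxidase activity, whereas Cox12 is needed for an active enzyme.

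Several strains without assembly or translation factors of complex IV also had little signal on galactose. Pet54 activates translation of the COX3 mRNA, and its strain had 215 and 218 units on galactose under the empty vector, against 15125 and 9225 units on glucose, a log2 difference of -4.11 (standard error 0.76). Pet309 does so for the COX1 mRNA, and its strain had 33.4 and 60.9 units on galactose, against 1520 and 6449 units on glucose, by the downtag alone. Both strains were below the limit on galactose in both experiments. The strain without the assembly factor Coa1 had 59.8 and 572 units on galactose, against 2330 and 10571 units on glucose. The strain without Cox16, another assembly factor, had 193 and 1379 units on galactose, against 4461 and 18282 units on glucose. The strain without Shy1, a factor for the heme-bearing Cox1 subunit, had 7.05 and 154 units on galactose, against 804 and 3178 units on glucose. In each of these 3 strains both galactose values lay below both glucose values.

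A further 13 members were detected on glucose in 1 experiment with the empty vector and on galactose in none. The share of all strains with this pattern was not counted, so the number is only a description. The Rieske iron-sulfur protein Rip1 is a catalytic subunit of complex III, and its strain had 70.0 and 128 units on galactose under the empty vector, against 64.9 and 1827 units on glucose. Under the MDM33 plasmid it had 575 and 214 units on galactose, against 2111 and 950 units on glucose. Cbp1 stabilises the cytochrome b mRNA, and its strain had 53.7 and 61.8 units on galactose under the empty vector, against 34.2 and 13812 units on glucose. Neither strain was detected on galactose, and with the empty vector each was seen on glucose in experiment 2 only. Cox10 makes the precursor of heme A, and its strain had 14.2 and 64.6 units on galactose under the empty vector, against 0 and 11355 units on glucose. Cox14 takes part in the assembly of Cox1, and its strain had 35.3 and 43.5 units on galactose, against 22.8 and 5679 units on glucose. Mss51 activates translation of the COX1 mRNA, and its strain had 44.7 and 181 units on galactose, against 69.6 and 598 units on glucose. With the empty vector the sugars could be compared in these strains in experiment 2 alone. The galactose value was below the glucose value there, which largely follows from how the strains were picked.

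Cytochrome c1 receives its heme from the lyase Cyt2, and the strain lacking CYT2 (YKL087C) had 2588 and 2413 units on galactose under the empty vector, against 9494 and 29804 units on glucose, a log2 difference of -2.54 (standard error 0.87). This strain was detected in all 8 DNA samples, and its galactose values did not overlap with those on glucose. Galactose values below both glucose values were found for 17 of the 24 members detected on glucose and for 18.8% of all such tested strains. Among the 39 tested members this held for 18 (17.0% of all tested strains), and 3, Δcyc1, Δqcr10 and Δcox8, lay above both glucose values (13.7%).

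By the test across all strains, no member and no other strain passed an adjusted p of 0.05 between galactose and glucose with the empty vector (0 of 4258, 0.0%). At an unadjusted p under 0.05, limma placed 8 of the 39 tested members lower and 0 higher, against 60 lower (1.41%) and 20 higher (0.47%) of all 4258 strains. The median log2 difference of the tested members was -1.46, and that of all tested strains was -0.10. A member with signal on glucose alone could pass the filter only by being lower on galactose, so this median is a description. It was -0.23 in experiment 1 and -2.43 in experiment 2, where both dyes were used for each sugar. With both scalings to a 75th percentile the median of the members stayed below 0 (-1.17 and -1.19), while that of all strains was 0.63 with the percentile of all probes and -0.05 with that of the labelled barcodes.

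A list of some members whose deletion leaves respiration at least in part was set apart from the other members. Absence from the list does not mean that a strain cannot respire. Textbook knowledge holds that yeast without QCR6, QCR10, COX5B, COX8, COX13, CYC1 or CYC7 still respires, at least in part. This list was drawn up with earlier results of these data known, so the contrast below is a description and cannot test a link with respiration. All 7 of these strains were detected with the empty vector on glucose and on galactose in both experiments, and 0 of them had under 20% of their glucose signal in both. Of the 17 other members detected on glucose, 11 did, while Δcbp6, Δcox5a, Δcyt2, Δsdh1, Δsdh2 and Δsdh4 did not. Galactose values of the 17 had a median of 3.17% of the glucose values in experiment 1 and of 7.54% in experiment 2, against 146.8% and 101.9% for the 7.

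With the MDM33 plasmid, 18 of the 26 members detected on glucose had both galactose values below both glucose values, in a pool where 63.3% of such tested strains did, at the scaling to a common total. Of the 26 members detected on glucose in both experiments, 12 were detected on galactose in both, which is 46.2%, against 59.7% of all 3773 strains detected on glucose, and 11 in neither, which is 42.3%, against 11.6%. Of the 21 members detected in all 4 glucose samples, 12 were found on galactose in both experiments (62.4% of the 3516 such strains) and 6 in neither (9.19%). Galactose values of the 26 members had a median of 22.1% of the glucose values in experiment 1 and of 12.3% in experiment 2, and over all 3773 strains the medians were 25.8% and 13.7%. Under 10% in both experiments were 3 of the 26 members (11.5%, against 7.34% of all) and under 20% were 10 (38.5%, against 24.4% of all). The 12 persisting strains were those named with the map of signals. No strain passed the test here (0 of 4258, 0.0%), while at an unadjusted p under 0.05 limma placed 10 of 39 members lower and 0 higher, against 1487 lower (34.9%) and 72 higher (1.69%) of all strains. The count over all strains depended on the settings, with 571 lower and 28 higher at an offset of 2000, and 0 lower and 53 higher when scaled to the labelled barcodes. Galactose values lay below both glucose values for 19 of the 39 members (57.0% of all tested strains) and above them for 0 (4.32%). The median log2 difference was -1.40 for the members and -1.88 for all tested strains, and with scaling to the 75th percentile of the labelled barcodes it turned to 0.36 and 0.47.

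The strain lacking CYT1 had 1458 and 413 units on galactose under the MDM33 plasmid, against 24229 and 20237 units on glucose, the lowest log2 difference of the tested members at -4.08 (standard error 0.78, adjusted p = 0.0595 from limma). The strain without Cox12 had 24.8 and 483 units on galactose, against 1202 and 50608 units on glucose, a difference of -3.70. The strain without Cbp4 had 4916 and 165 units on galactose, against 26347 and 19414 units on glucose. All of these were lower on galactose in both experiments. Δcyt1 and Δcox12 were below the detection limit there in both experiments, and Δcbp4 was detected in experiment 1 alone. The strain without Cbp3 had 833 and 169 units on galactose, against 3255 and 29173 units on glucose. The strain without Coa1 had 849 and 282 units on galactose, against 4434 and 15706 units on glucose. The strain without Pet54 had 651 and 269 units on galactose, against 5419 and 9042 units on glucose. These last 3 strains were below the detection limit on galactose in both experiments. The strain lacking COR1 (YBL045C) had 564 and 577 units on galactose, against 2011 and 4839 units on glucose, and was below the limit on galactose as well.

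At the other end, the strain lacking CYC1 had 1583700 and 76748 units on galactose under the MDM33 plasmid, against 105026 and 54274 units on glucose, which limma fitted as a log2 difference of 2.20 with a standard error of 1.36 (adjusted p = 0.272). In experiment 1 it held 1.15% of the signal of all strains and was 3rd of 5526 in order of signal, while in experiment 2 it held 0.0565% and was 513th. The strain without the complex II subunit Sdh2 had 18140 and 99176 units on galactose, against 16843 and 26306 units on glucose, by the downtag alone. The strain without Qcr6 had 28636 and 140555 units on galactose, against 40050 and 39319 units on glucose. The high galactose value stood in experiment 1 for Δcyc1 and in experiment 2 for Δsdh2 and Δqcr6. The strain without Qcr10 had 5799 and 274599 units on galactose, against 37543 and 45019 units on glucose, so the experiments went in opposite directions and the fitted difference was 0.00043. The strain without Cox16 had 317 and 21309 units on galactose, against 1308 and 12978 units on glucose, and its experiments were opposed too.

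Comparing the plasmids on galactose asks which deletions let a strain hold its share of the pool while MDM33 is induced. Over all strains 11 were higher with the MDM33 plasmid (0.258%) and 414 were lower (9.72%) by limma at an adjusted p under 0.05 (9.98% in either direction), and of the 39 members 0 were higher and 0 were lower. With experiment as a block, 7 strains were higher and 211 were lower, among them 0 members. Scaled to a 75th percentile, the test placed 2 strains higher and 0 lower by all probes, and 14 higher and 0 lower by labelled barcodes, again without a member. At an unadjusted p under 0.05, 1 member was higher and 2 were lower, against 59 (1.39%) and 1399 (32.9%) of all strains. The median log2 difference of the tested members was 0.31, and that of all tested strains was -1.55. Most members were at background on galactose with either plasmid, where the difference could not be large. Among the 16 members detected on galactose with the empty vector in both experiments, the median was -0.57, against -1.86 for the 3656 such strains of the array. Scaling to the 75th percentile of the labelled barcodes moved the median of all strains to 0.75, and that of all probes moved it to -0.78, so each difference here holds for the scaling to a common total.

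**Figure D4:**
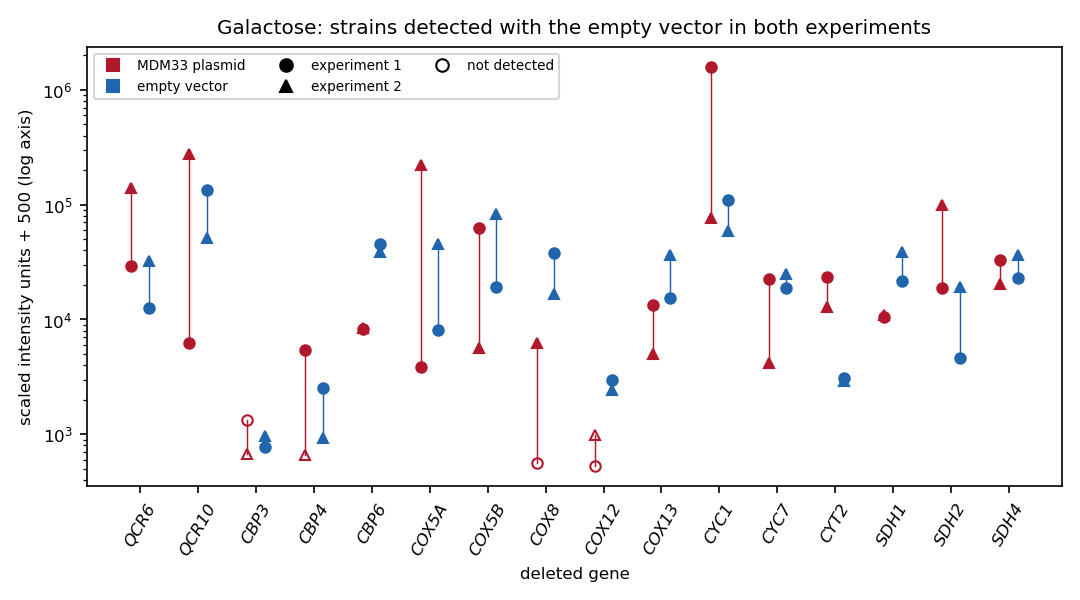
Signal on galactose (scaled intensity units plus 500, log axis) of the 16 strains detected there with the empty vector in both experiments, scaled to a common total, with the MDM33 plasmid (red) left of the empty vector (blue), circles for experiment 1, triangles for experiment 2 and open symbols where a strain was not detected. The values of Δcbp6, Δcox8, Δcox12, Δcox13 and Δsdh1 with the MDM33 plasmid lie below both with the empty vector, and those of Δcyt2 lie above them.

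The strain lacking CBP6 had 7752 and 7931 units on galactose under the MDM33 plasmid, against 45222 and 37918 units with the empty vector. It averaged 7842 ± 127 units with the MDM33 plasmid and 41570 ± 5165 units with the empty vector (SD, n = 2 each). The difference on the log2 scale was -2.47 in experiment 1 and -2.19 in experiment 2, and -2.33 in the fit (standard error 0.71, adjusted p = 0.0711 from limma), but 0.33 when scaled to the 75th percentile of the labelled barcodes, where the median of all strains was 0.75. The strain lacking COX8 had 65.9 and 5706 units with the MDM33 plasmid, against 37390 and 16336 units with the empty vector, a difference of -3.75 (adjusted p = 0.0849 from limma). The strain lacking COX12 had 24.8 and 483 units with the MDM33 plasmid, against 2489 and 1948 units with the empty vector. The strain lacking COX13 had 12776 and 4545 units with the MDM33 plasmid, against 14763 and 35677 units with the empty vector. The groups did not overlap in any of these 4 strains, nor in Δsdh1, although scaling to the labelled barcodes turned the fitted differences of Δcox13 and Δsdh1 to 0.82 and 1.04. This makes 5 of the 39 tested members and 5 of the 16 detected with the empty vector. In the same direction this held for 49.4% of all tested strains and for 57.3% of those detected with the empty vector.

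In the other direction, the strain lacking CYT2 had 22815 and 12409 units on galactose under the MDM33 plasmid, against 2588 and 2413 units with the empty vector. Its log2 difference of 2.53 (standard error 0.87, adjusted p = 0.0886 from limma) was the highest of the members detected there in both experiments of at least 1 group, and both tags showed it. With the MDM33 plasmid Δcyt2 had 25977 and 47910 units on glucose, against 9494 and 29804 units with the empty vector there, so the sign was the same on both sugars. The difference of Δpet309 was 2.56, from 8.48 and 20052 units with the MDM33 plasmid, against 33.4 and 60.9 units with the empty vector, and of these 4 samples it was detected in experiment 2 of the MDM33 plasmid alone. Higher values with the MDM33 plasmid without overlap were seen for 9 of the 39 members and for 5.89% of all tested strains, but apart from Δcyt2 these members were below the limit on galactose with both plasmids. The strain lacking SDH2 had 18140 and 99176 units with the MDM33 plasmid, against 4145 and 18507 units with the empty vector, a difference of 2.20 (standard error 1.16). The strain lacking QCR6 had 28636 and 140555 units with the MDM33 plasmid, against 12178 and 31716 units with the empty vector, a difference of 1.67 (standard error 0.98). Both were higher with the MDM33 plasmid within each experiment, although the 4 values overlapped.

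The isoforms of cytochrome c and of the Cox5 subunit had separate deletion strains. Cyc1 is the main form of cytochrome c in air and Cyc7 the minor one. On galactose Δcyc1 had 1583700 and 76748 units with the MDM33 plasmid, against 109211 and 58182 units with the empty vector, a log2 difference of 2.12 (adjusted p = 0.318 from limma) that was -0.05 without the MDM33 sample of experiment 1. Its uptag gave 2832190 units and its downtag 335208 units in that sample, so both barcodes were high there. The strain lacking CYC7 had 22059 and 3674 units with the MDM33 plasmid, against 18495 and 24492 units with the empty vector, and on glucose 5673 and 29884 units with the MDM33 plasmid, against 12602 and 22917 units with the empty vector. Cox5a is the aerobic and Cox5b the hypoxic form of a complex IV subunit. On galactose Δcox5a had 3361 and 220368 units with the MDM33 plasmid, against 7567 and 45036 units with the empty vector, and Δcox5b had 62153 and 5174 units with the MDM33 plasmid, against 18782 and 81942 units with the empty vector. Within each experiment these strains moved in opposite directions, and each strain turned its direction between the experiments. On glucose Δcox5a had 18167 and 75470 units with the MDM33 plasmid, against 99005 and 57382 units with the empty vector, and Δcox5b had 75467 and 82142 units with the MDM33 plasmid, against 92174 and 89368 units with the empty vector.

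Of complex II, the strain lacking SDH1, the flavoprotein, had 10092 and 10370 units on galactose under the MDM33 plasmid, against 79597 and 53137 units on glucose. Limma fitted this as a log2 difference of -2.61 with a standard error of 0.82 (adjusted p = 0.0750). With the empty vector it had 21156 and 38548 units on galactose, against 24262 and 62233 units on glucose, a difference of -0.44. The strain lacking SDH4, which encodes a membrane anchor, had 32396 and 19957 units on galactose under the MDM33 plasmid, against 47357 and 37422 units on glucose, and with the empty vector 22496 and 35906 units on galactose, against 36961 and 43669 units on glucose. The strain lacking SDH2, the iron-sulfur subunit, had 4145 and 18507 units on galactose under the empty vector, against 10582 and 33140 units on glucose. With the MDM33 plasmid Δsdh1 was thus lower on galactose in both experiments, Δsdh4 less so, and Δsdh2 was not lower in either.

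On glucose, where the promoter is repressed, no strain passed the test between the plasmids (0 of 4258, 0.0%), and at an unadjusted p under 0.05 limma placed 1 of 39 members higher and 0 lower, against 25 (0.587%) and 19 (0.446%) of all strains. Values with the MDM33 plasmid lay below both with the empty vector for 4 members (13.2% of all tested strains), Δcor1, Δpet54, Δcox13 and Δcox5b, and above them for 3 (11.1%), Δcyt1, Δbcs1 and Δpet117. The median log2 difference was 0.16 for the members and 0.02 for all tested strains. The member with the higher value was Δpet117, named after its value was seen, with 6391 and 2296 units with the MDM33 plasmid, against 19.3 and 1218 units with the empty vector. The strain lacking COR1 had 2011 and 4839 units with the MDM33 plasmid, against 8794 and 15723 units with the empty vector. In the interaction of plasmid and sugar 0 of 39 members and 0 of 4258 strains (0.0%) passed the test, and at an unadjusted p under 0.05 limma placed 1 member lower, Δcbp6, and 0 higher, against 744 (17.5%) and 27 (0.634%) of all strains. Leaving out experiment 1 of the MDM33 plasmid on galactose gave 831 lower and 56 higher strains at an adjusted p under 0.05, with 0 members among them. The median interaction was -0.04 for the members and -1.61 for all tested strains, and 1.59 and 0.64 when scaled to the labelled barcodes.

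Single samples of the MDM33 plasmid on galactose decided which members were called. Without its experiment 1, limma called 6 of 39 members lower and 1 higher than on glucose, against 1572 lower and 215 higher of all 4258 strains. Without its experiment 2, it called 3 members lower and 1 higher, against 546 and 94 of all strains. Compared with the empty vector, 1 member was lower and 2 were higher without experiment 1, against 1544 and 250 of all strains, and 3 were lower and 1 was higher without experiment 2, against 686 and 85 of all strains. The strains called lower than the empty vector in both cases came down to Δcbp6. Δcyt1 and Δpet54 were called lower than on glucose in both cases. Such fits take the lone sample to vary like the other groups.

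A further list of 28 respiratory chain genes, among them NADH dehydrogenases and assembly factors, served as a comparison, with 27 on the array and 22 tested. With the empty vector both experiments detected 16 of the 27 on glucose, and 15 of these 16 on galactose. Only 1 of the 16, the strain lacking the inner membrane peptidase gene IMP1, had under 10% of its glucose signal in both experiments. Δimp2 had 56.7% in experiment 1 and 0.26% in experiment 2. A further 7 strains of the list were seen on glucose with the empty vector in experiment 2 alone. There the galactose signal was 0.30% of glucose for Δmss116, 0.91% for Δcbp2, 3.20% for Δcbt1, 3.70% for Δoxa1 and 6.94% for Δcoa2. It was 22.5% for Δsco2 and 45.2% for Δmrs1. On galactose 0 of the 22 passed limma's test between the plasmids, with 4 lower and 0 higher at an unadjusted p under 0.05, and the median log2 difference was -0.60. The lowest were Δcoa4 and Δfmp25, which lack assembly factors of complexes IV and III. Δcoa4 had 40646 and 232 units with the MDM33 plasmid, against 165296 and 33160 units with the empty vector. Δfmp25 had 31439 and 311 units with the MDM33 plasmid, against 55484 and 75015 units with the empty vector, and in both strains the difference was larger in experiment 2. The next were Δsdh8 and Δcyb2, which lack an assembly factor of complex II and a lactate dehydrogenase. Δsdh8 had 937 and 6002 units with the MDM33 plasmid, against 12895 and 44356 units with the empty vector. Δcyb2 had 11847 and 768 units with the MDM33 plasmid, against 35341 and 24247 units with the empty vector, and among these 4 strains the values of Δcoa4 alone overlapped between the plasmids.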

How the data were processed

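Spot densities were quantified with ArrayVision, background-corrected and scaled to a common total per channel by the authors, and the deposited values are linear intensity values without a log. Totals lay between 147379493 and 147666701 units in the 24 channels. No further scaling was applied. The table's probe names and tag types were deposited with it, and 24 unscaled columns were not used because their numbering differs from that of the sample titles. Of 14154 annotated barcode probes 14129 had values. Per tag the probe with the highest mean over the labelled channels was taken, dyes were averaged, then tags, which gave 8 values per strain. Genes were matched by systematic name.

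Values plus 500 were taken to log2 and fitted with limma 3.58.1 (lmFit, contrasts, eBayes) in R 4.3.3 over all 4258 tested strains, with Benjamini-Hochberg adjustment at 0.05, 4 residual degrees of freedom and a spread shared by the 4 groups. The procedure was tested on simulated data. Tables were made with Python 3.11.15 and pandas 2.3.3. The number of arrays limits the precision, and the p-values measure the spread between 2 experiments pooled over the 4 groups. The larger spread of the MDM33 plasmid on galactose therefore enters every comparison. With array weights, the smallest adjusted p of a member between the sugars in limma moved from 0.733 to 0.173 with the empty vector. With the MDM33 plasmid it moved from 0.0595 to 0.234. Alternatives covered the offset, scaling, filter, tags, probes, dyes, array weights, a replicate block, left-out replicates and the detection limit; the mean over all probes of a tag was added after seeing the data.

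Per the design text a transformation was spread on media with either sugar, so experiment numbers pair the samples. Differences between the experiments correlated across strains at 0.15 between galactose and glucose with the MDM33 plasmid and at 0.26 with the empty vector. Between the plasmids they correlated at 0.32 on glucose and at 0.064 on galactose. The value was 0.21 between MDM33 glucose and empty galactose and 0.062 between MDM33 galactose and empty glucose. The highest correlation was thus not within a plasmid.

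The members, gene lists and comparisons were chosen with earlier results of these data known. Values in each experiment are given for the 5 highest and 5 lowest tested members of the 3 comparisons that involve galactose, among members detected in both experiments of at least 1 of the groups, and for both isoform pairs and complex II, 21 strains in all. Of a list of 28 other respiratory chain genes, the 4 with the largest difference on galactose between the plasmids are named. QCR2, SHY1, PET309, QCR7, CBS2, RIP1, CBP1, COX10, COX14, MSS51, PET117 and IMP1 were named after their values were seen. The same holds for IMP2, MSS116, CBP2, CBT1, OXA1, COA2, SCO2 and MRS1. The barcode sequences were not in the files used here.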

Additional observations from a re-analysis of the deposited data

Results flagged for a closer look

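For 6 strains the plasmid effect had the opposite sign on galactose and on glucose in both experiments, or the sugar effect had the opposite sign with the MDM33 plasmid and with the empty vector, and the test of the interaction did not reach an adjusted p under 0.05 for any of them. How many of all strains showed such reversals was not counted, so this number is no result about the members. With the sign of the plasmid effect reversed between sugars, the interaction was 2.39 for Δcor1 (standard error 1.11, adjusted p = 0.296 from limma), -2.53 for Δcbp6 (standard error 1.00, adjusted p = 0.256 from limma), 1.11 for Δpet54 (adjusted p = 0.613 from limma) and 2.85 for Δcox16 (adjusted p = 0.554 from limma). On galactose Δcor1 and Δpet54 were below the detection limit in all 4 samples, as was Δcox16 in experiment 1, so the sign there is that of a difference between background values. The strain lacking SDH2 was higher on galactose than on glucose with the MDM33 plasmid and lower with the empty vector in both experiments, with an interaction of 2.04 (standard error 1.64, adjusted p = 0.531 from limma). The strain lacking COX8 showed the reverse pattern in both senses, with an interaction of -4.10 (standard error 1.77, adjusted p = 0.277 from limma).

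The array also holds control probes with an exchanged base for the uptags of Δqcr10, Δpet111 and Δsco1, which enter no comparison. That of Δqcr10 exceeded the detection limit in 10 of 12 uptag channels, with up to 36.8% of the signal of the matching probe, and those of the other strains exceeded it in 0 channels.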

How the results depend on the processing

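With 2 experiments per group, no statement rests on a called member. The count of members called stayed at 0 with the empty vector, on glucose and in the interaction under all alternatives run. Against glucose with the MDM33 plasmid it was 2 of 34 by downtags only (405 lower and 10 higher of all 3479 strains), 4 of 53 without the filter (635 and 24 of 5526) and 2 of 39 with an offset of 2000 (571 and 28 of 4258), and against the empty vector on galactose 1 without the filter (689 lower and 19 higher of 5526) and 1 with the offset of 2000. Without 1 replicate it ranged from 0 to 7 and from 0 to 4 in these comparisons. With the replicate block, which takes a shift between the experiments common to both plasmids and sugars, it was 0 in all 5 comparisons. Each group has both experiments, so this block cannot move a median (0.31 on galactose between the plasmids). The pairing of the sugars within each plasmid was not fitted.

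Over all strains, the counts on galactose between the plasmids were 0 higher and 0 lower with array weights, 2 and 73 with the offset of 100, 21 and 651 with the offset of 2000, and without 1 replicate 0 to 250 higher and 0 to 1544 lower.

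The median of the members with the MDM33 plasmid against glucose was 0.36 with the labelled-barcode scaling and -2.28 to -0.35 without 1 replicate, and with the empty vector it was -2.51 to -0.02 without 1 replicate. On galactose between the plasmids it was -0.0194 by downtags, 0.52 with 1 dye per sugar, 0.22 without the filter, 0.57 and 0.15 with offsets of 100 and 2000, 0.26 by original probes, 0.49 and 1.91 with the scalings to all probes and labelled barcodes, and 0.0501 to 0.39 without 1 replicate. On glucose these values were 0.0176 by downtags, 0.31 by uptags, 0.0236 with 1 dye per sugar, 0.0055 without the filter, 0.14 with the offset of 2000, 0.18 by original probes, -0.0500 and 0.18 with the scalings, 0.21 with the mean of all probes, and -0.40 to 0.63 without 1 replicate. The cause of these shifts was not tested.

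Members detected in both experiments numbered 3 on galactose with the MDM33 plasmid when both tags had to pass, and with a limit of the median plus 3 MAD 27 there, 27 on galactose and 41 on glucose with the empty vector.

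Signs turned for these strains. With the MDM33 plasmid against glucose, Δqcr10 was -1.27 by downtags, -0.0346 with 1 dye per sugar and -0.0340 with the offset of 100, and Δcox16 was 1.01, 0.47, 0.0622 with the offset of 2000, 1.19 and 2.19 with the scalings, and 0.0451 with the mean of all probes. With the empty vector Δcyc7 was -0.23 by uptags. Between the plasmids on galactose, with the labelled-barcode scaling, Δcbp6 was 0.33, Δcox13 was 0.82 and Δsdh1 was 1.04, and Δcox5a was -0.36 by downtags. Without 1 replicate the ranges were -0.21 to 2.21 for Δsdh2, -0.46 to 1.81 for Δqcr6, -2.72 to 2.72 for Δqcr10, -2.59 to 2.14 for Δcox16, -0.10 to 0.73 for Δcyc7, -0.0548 to 4.30 for Δcyc1 and -2.31 to 3.53 for Δcox5a.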
